A study of Mus musculus with 2 samples.

Results

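Mir28a, Mir151 and Mir708 are related miRNA genes, each inside an intron of a protein-coding gene, and were described here in embryonic mouse forebrain. The genes were taken by name and relation, with earlier results of these data known, and make up 3 of the 1973 miRNA genes in the deposited tables. Small RNA was sequenced from forebrains of the B6NCrl strain at embryonic day 14.5, with inserts below 30 by the labels, in 2 libraries that form a single group without a second condition, genotype or treatment. The labels call each library a single forebrain, collected on different days, but also state pooled sexes and give 1 donor identifier for the pair, so the spread between these samples, given as SD, may be technical. The libraries held 7080317 (replicate 1) and 7946585 (replicate 2) counts on the strand of an annotated miRNA gene.

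A miRNA is cut from a hairpin in a longer primary transcript, and guides the silencing complex to mRNAs mainly through its seed, bases 2 to 8 from the 5′ end. Intronic hairpins on the host's strand can be processed from the host's primary transcript, so host and miRNA may share a promoter. The miR-28 family is known as one whose hairpins arose from LINE-2 transposable elements. The hosts are Lpp, which encodes a LIM-domain protein of cell adhesions, Ptk2, which encodes focal adhesion kinase, and Tenm4, which encodes a teneurin, a transmembrane protein of the developing nervous system.

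The mature sequences show what Mir28a and Mir708 have in common. RefSeq entries (GRCm38.p6) were matched for 2 of the 3 genes, Mir28a and Mir708, with 4 arms in all. The 5p arms of these genes and the annotated relative miR-28b are printed together because their first bases carry the relation, and the 3p arms because their seeds differ. Capitals mark the seed.
mmu-miR-28a-5p: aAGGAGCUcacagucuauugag
mmu-miR-708-5p: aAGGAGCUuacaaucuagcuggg
mmu-miR-28b: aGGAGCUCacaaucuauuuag
mmu-miR-28a-3p: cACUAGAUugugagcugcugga
mmu-miR-708-3p: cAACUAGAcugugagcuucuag

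miR-28a-5p and miR-708-5p had the same seed, AGGAGCU, and no other of the 1738 mature entries had it. Aligned without gaps from the first base, they matched at 16 of 22 positions. The 6 differences, with the miR-28a-5p base first and positions counted from 1 at its 5′ end, were C9U, G13A, U18G, U19C, G20U and A21G, all outside the seed. The annotated miR-28b matched miR-28a-5p at 19 of 21 positions but starts 1 base later, so its seed, GGAGCUC, is shifted and was held by no other entry. The 3p arms had different seeds, although 17 of 21 aligned positions matched when miR-708-3p was read 1 base further in. Searched on the RNA strand, the letters AAGGAGCU occurred in 3 of the 1738 mature entries (0.173%), these 5p arms and miR-7663-3p. The 1738 entries hold none for Mir151 or for Mir28c, another annotated relative. Neither the seed comparisons nor this search covered those genes.

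The hairpins lie on different chromosomes of mm10 (GENCODE M21 positions), far from the start of their hosts in Lpp and Ptk2 and nearer to it in Tenm4. Mir28a (ENSMUSG00000065494.1) is at chr16:24827855-24827940 on the plus strand, 86 nt long, in intron 8 of 12 of Lpp, in the transcript with the longest coding sequence. That intron spans 82.8 kb, and the hairpin begins 434 kb from the transcript start. Mir151 (ENSMUSG00000065612.1) is at chr15:73254815-73254882 on the minus strand, 68 nt long, in intron 23 of 33 of Ptk2, 168 kb from the transcript start. Its intron is the shortest of the 3, at 14.6 kb, with an exon 2.15 kb upstream of the hairpin. Mir708 (ENSMUSG00000076143.1) is at chr7:96249424-96249532 on the plus strand, 109 nt long, in intron 1 of 32 of Tenm4. That intron spans 143 kb, and the hairpin begins 37.8 kb from the transcript start. The annotated gene Tenm4 begins further upstream, at chr7:96171246, so this distance holds for the chosen transcript. No coding transcript that spans a hairpin had an exon over it, among 3 for Lpp, 2 for Ptk2 and 4 for Tenm4. No other annotated miRNA gene lay within 10 kb of any of them, on either strand. Inside the hosts the annotation lists 1 more miRNA gene, Mir6394 in Tenm4, with 0 counts in both libraries.

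**Figure D1:**
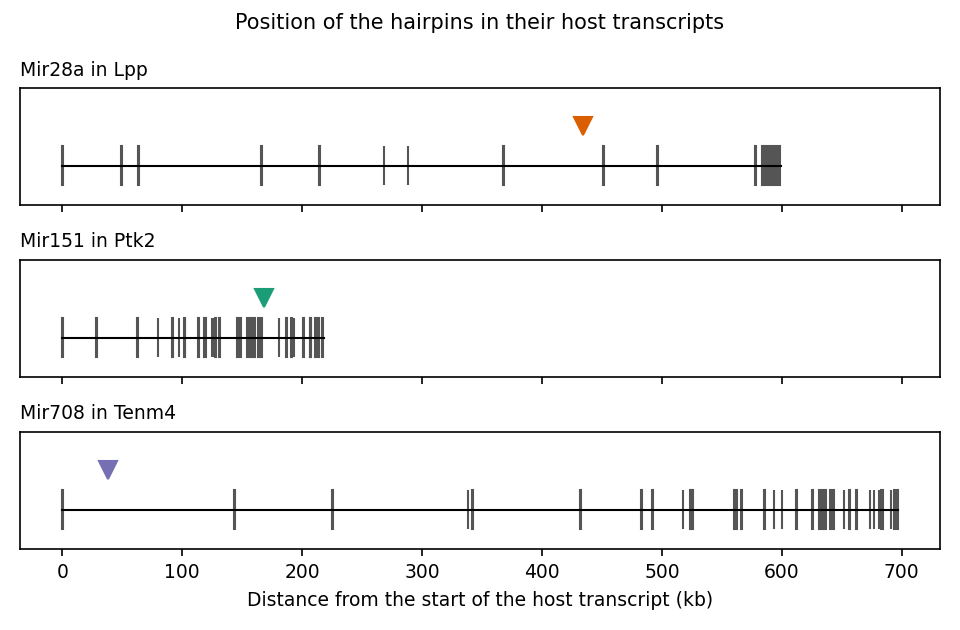
Host transcripts drawn as lines from their start (horizontal axis in kb), with exons as dark boxes (short exons drawn wider than to scale) and the hairpin as a triangle. In these transcripts Mir708 sits 37.8 kb into Tenm4, in the first intron, while Mir28a and Mir151 sit 434 kb into Lpp and 168 kb into Ptk2.

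All 3 genes were well above the detection minimum of 10 counts in both libraries, at levels that fell into a high pair and a lower single gene. Levels are in CPM, a gene's count divided by the library's summed miRNA gene counts and multiplied by 1000000. Mir708 had 42238 and 42506 counts in replicates 1 and 2, or 5966 and 5349 CPM, with a mean of 5657 ± 436 CPM (SD, n = 2). Mir151 had 31479 and 33918 counts, or 4446 and 4268 CPM, with a mean of 4357 ± 126 CPM. Mir28a had 4299 and 3064 counts, or 607 and 386 CPM, with a mean of 496 ± 157 CPM. In either library Mir28a was far below its relatives, and the values of Mir708 and Mir151 did not overlap. Among the 399 detected genes Mir708 ranked 31, Mir151 38 and Mir28a 106 by mean CPM, and 30, 38 and 99 in replicate 1 against 32, 39 and 117 in replicate 2. In bulk tissue, fewer cells of a type and less RNA per cell cannot be told apart.

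**Figure D2:**
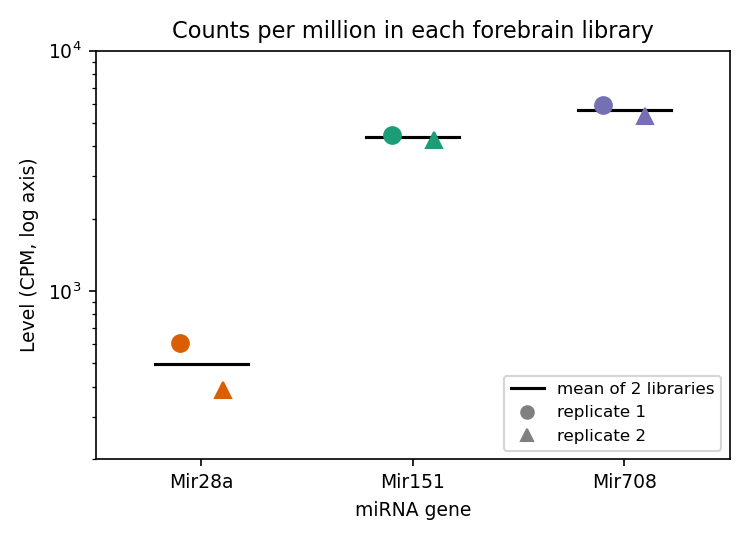
Level of each gene in CPM on a log axis, with a circle for replicate 1, a triangle for replicate 2 and a line at their mean. Mir708 and Mir151 lie between 4268 and 5966 CPM, and Mir28a lies at 607 and 386 CPM.

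Together the 3 genes held 78016 and 79488 counts, or 1.10% and 1.00% of the miRNA counts, with a mean of 1.05% ± 0.0718 (SD, n = 2). Mir708 made up 53.8% ± 0.471 of that sum, Mir151 41.5% ± 1.64 and Mir28a 4.68% ± 1.17. The share of Mir28a was 5.51% in replicate 1 and 3.85% in replicate 2, and that of Mir151 was 40.3% and 42.7%. Mir708 stood at 54.1% and 53.5%, so the share of Mir28a was lower in replicate 2 and that of Mir151 higher, with little difference at Mir708.

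Ratios of counts within a library need no library total. Mir708 had 1.34 times the counts of Mir151 in replicate 1 (95% Wilson interval 1.32 to 1.36) and 1.25 times in replicate 2 (1.24 to 1.27). Against Mir28a, Mir708 had 9.83 times the counts in replicate 1 (9.52 to 10.1) and 13.9 times in replicate 2 (13.4 to 14.4). For Mir151 against Mir28a the ratios were 7.32 (7.09 to 7.56) and 11.1 (10.7 to 11.5). Without molecular identifiers, PCR copies cannot be told from separate molecules, so these intervals cover counting error only. An insert below 30 holds a single mature arm, so a longer hairpin does not give more reads by its length, but division by hairpin length was also made. In CPM per 100 nt of hairpin, Mir151 stood at 6408 ± 185, Mir708 at 5190 ± 400 and Mir28a at 577 ± 182 (SD, n = 2), so the order of Mir708 and Mir151 turned and Mir28a stayed lowest.

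The annotation holds further genes that resemble these. Mir28b, at chr8:73016512-73016591 on the plus strand, had 4 and 2 counts, or 0.565 and 0.252 CPM, against floors of 0.424 and 0.378 CPM for 3 counts. It was thus at about the limit of detection, and no level could be set for it. Mir28c, at chr15:53614205-53614279 on the minus strand, is in the later GENCODE release and was not analysed here. On its own strand its hairpin holds a stretch of 20 nt that is also bases 2 to 21 of the 22-nt miR-28a-5p.

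Mir708 has a similar copy of its 5p arm elsewhere. Gm23134, an annotated miRNA gene at chr2:157562361-157562447 on the minus strand inside Blcap, shares 23 nt with the Mir708 hairpin, of which 22 are bases 2 to 23 of miR-708-5p. Only the first base of this 23-nt arm lies outside the shared stretch. Gm23134, which was named for this sequence and not by a rule, had 181 and 172 counts, or 25.6 and 21.6 CPM, equal to 4.29 and 4.05 counts per 1000 counts of Mir708. Mir151 shared no stretch of 20 nt with another hairpin, and its longest was 17 nt, with Mir28c. Between the hairpins of Mir28a and Mir151 the longest common stretch was 16 nt. It covers bases 2 to 17 of miR-28a-5p and so the whole seed of that arm. Between the hairpins of Mir708 and Mir28a the longest was 10 nt. Of the 1894 hairpins with a sequence, 929 shared 20 nt or more with another. Reads that matched several places were 42.7% ± 0.822 of each library (SD, n = 2) and were given to no gene. 5p reads of Mir28a or Mir708 that lack the bases outside these stretches match both places. Full-length 5p reads can be lost in the same way where the alignment allowed mismatches or clipped ends, which is not given in the sources used here. The loss was not tested, so the levels of Mir28a and Mir708 are those of uniquely assigned reads.

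Between the libraries Mir28a differed most, at 1.57-fold higher CPM in replicate 1. Its log2 ratio of replicate 2 over replicate 1, taken on CPM + 1, was -0.65, and the 95% counting interval of the fold was 1.503 to 1.65 (two-sided Fisher's exact test against the remaining miRNA counts, Benjamini-Hochberg adjusted p = 2.63e-82). Mir708 was 1.12-fold higher in replicate 1, with an interval of 1.10 to 1.13 (log2 ratio -0.16, Fisher's exact test, adjusted p = 7.13e-56). For Mir151 the fold was 1.04, with an interval of 1.03 to 1.06 (log2 ratio -0.059, Fisher's exact test, adjusted p = 1.02e-06). All 3 thus passed the threshold of 0.05 toward replicate 1. The test compares these libraries, not conditions, and knows counting error only, and at these counts it called a fold as small as 1.04.

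Calls were common at such depth. Of the 106 genes at or above the mean CPM of Mir28a, 94 (88.7%) passed the same test, 62 (58.5%) toward replicate 1, so that the 3 calls are close to what genes of this level showed. Of all 737 genes with a count, 194 (26.3%) passed, 125 of them (17.0%) toward replicate 1 and 69 toward replicate 2. With at least a 1.5-fold difference, 15 genes (2.04%) were called toward replicate 1, and Mir28a was the only one of the 3. That call takes the fold on CPM + 1, unlike the counting interval of the fold given above. It was lost with TMM (1.49-fold), with median-of-ratios factors (1.46-fold) and with totals that leave out the most abundant gene (1.4997-fold). The last value lies at the threshold, where the pseudocount can decide the call. Scaling also moved the split: 85 genes were called toward replicate 2 and 96 toward replicate 1 with TMM, 99 and 88 with median-of-ratios factors, and 84 and 97 without the most abundant gene. Median-of-ratios factors also moved the median log2 ratio of the detected genes by 0.11, from -0.088 to 0.021. Mir151 was near the middle of the detected genes, 212 of which had a lower ratio and 186 a higher one. Its direction turned to replicate 2 with TMM (log2 ratio 0.021, Fisher's exact test, adjusted p = 0.201), with median-of-ratios factors (0.051, adjusted p = 2.81e-05) and without the most abundant gene (0.011, adjusted p = 0.662). Mir28a and Mir708 stayed higher in replicate 1 under these scalings, with log2 ratios of -0.58 to -0.54 for Mir28a and -0.088 to -0.047 for Mir708.

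Mir28a was near the edge of the distribution. Of the 399 detected genes, 10 had a lower log2 ratio, and of the 192 at 100 CPM or more, 2 had. In either direction, 20 of the 399 and 6 of the 192 differed more than Mir28a. The middle range of those 192 genes ran from a log2 ratio of -0.25 to 0.11 between quartiles, with a median of -0.080. Mir708 at -0.16 and Mir151 at -0.059 lay inside it. Among 52 detected genes within 2-fold of the level of Mir28a, 2 had a lower ratio, and the highest ratio, toward replicate 2, was 1.15. Their quartiles were -0.195 and 0.179, so genes of like depth mostly differed less.

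**Figure D3:**
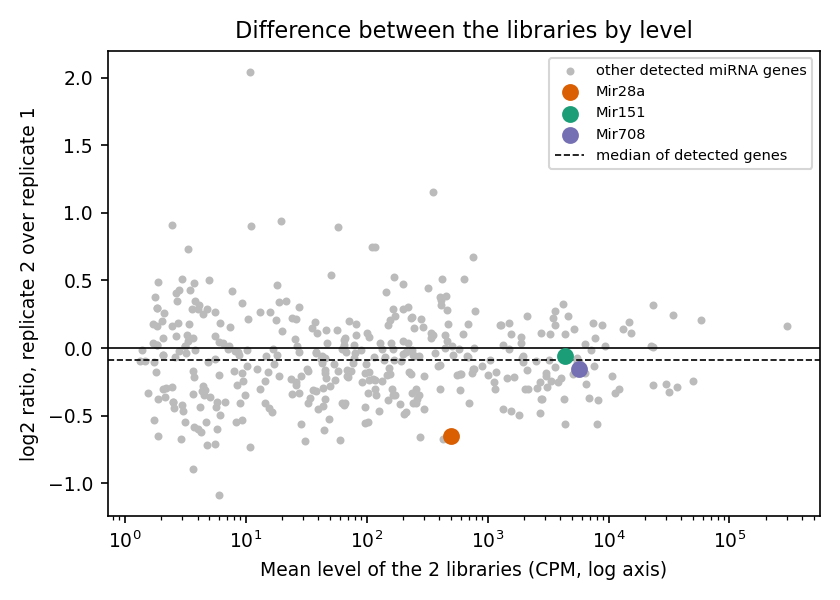
Log2 ratio of replicate 2 over replicate 1 against the mean level in CPM (log axis) for the 399 detected genes, grey, with the 3 family genes in colour, a solid line at 0 and a dashed line at the median of -0.088. Mir28a lies at -0.65, below most genes of its level, while Mir708 and Mir151 lie close to the median.

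Within counting error, the 3 genes did not move by a common factor. From replicate 1 to replicate 2 the ratio of Mir708 to Mir28a rose by a factor of 1.41 (95% counting interval 1.35 to 1.48) and that of Mir151 to Mir28a by 1.51 (1.44 to 1.59). The ratio of Mir708 to Mir151 changed by a factor of 0.934 (0.915 to 0.953). Library totals cancel in these values, and they cover counting error only. Of the 106 genes at or above the mean CPM of Mir28a, 94 (88.7%) passed Fisher's exact test between the libraries. Whether other sets of 3 such genes share a factor was not tested. Some marker miRNAs of other cells also differed between the libraries. The summed level of 6 epithelial markers was 1585 CPM in replicate 1 and 2120 CPM in replicate 2, that of 4 choroid plexus or ciliated cell markers 6818 and 5608 CPM, and that of 2 erythroid markers 400 and 537 CPM. All of these 12 markers were detected. The log2 ratios of these sums were 0.42, -0.28 and 0.42, where the quartiles of the detected genes were -0.30 and 0.12. The endothelial Mir126a stood at 22103 and 22365 CPM, and 3 immune markers summed to 186 and 191 CPM. The part of these markers in the difference of Mir28a was not tested, and neither was that of the collection day, which differed between the libraries.

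The labelled tissue was checked on 12 neural miRNAs, of which 11 were analysed and 10 were detected, with a summed level of 17127 and 15842 CPM. Most of the sum was held by Mir137 at 7614 ± 481 CPM, Mir92b at 3097 ± 439, Mir7b at 2120 ± 167 and Mir153 at 1649 ± 174 (SD, n = 2). Mir128-1 stood at 756 ± 246 CPM, Mir128-2 at 644 ± 161 and Mir9-3 at 595 ± 55.5. The remaining neural genes were far lower, with Mir9-2 at 5.00 ± 1.47 CPM and Mir124a-1, Mir124a-2 and Mir124a-3 at 2.21, 1.78 and 0.464 CPM. Reads that match several loci were given to no gene, so the values of these 4 genes leave out any such reads. Mir122 of liver was at 10.3 and 10.2 CPM, above those 4 genes, and of 2 striated muscle genes Mir206 was at 19.2 and 13.6 CPM and Mir1a-1 had 0 counts. A sum of 188.6 ± 3.83 CPM (SD, n = 2) was held by 3 immune markers, and Mir375 of pancreas was at 219 ± 32.9 CPM.

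By their levels in both libraries, the genes nearest to the 3 were not their sequence relatives. Likeness was the Euclidean distance of log2(CPM + 1) over the 2 libraries, among detected genes. Closest to Mir708 were Mir125a at 5943 and 5520 CPM (distance 0.046) and Mir411 at 5691 and 5312 CPM (0.069), which were also its neighbours in the order by mean. Neither differed from Mir708 by more than the spread between the libraries. Mir151 was nearest to Mir369, at 4184 and 4494 CPM (distance 0.11), and to Mir18, at 4390 and 3766 CPM (0.18). Mir28a was nearest to Mir106a, at 522 and 327 CPM (distance 0.32), and then to Mir138-1, at 596 and 518 CPM (0.43). With 2 libraries, such a distance mostly compares levels.

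The 3 genes belong to the 654 miRNA genes that lie in introns of protein-coding hosts on the host's strand. Of these, 160 (24.5%) were detected, against 20.2% of all genes, and they held 30.3% ± 0.484 of the miRNA counts (SD, n = 2). The median level of the detected intronic genes was 48.5 CPM, and 81.0 CPM over all detected genes. Mir708 was in place 14 among the 160, Mir151 in place 17 and Mir28a in place 45. Of the intronic genes, 72 passed Fisher's exact test between the libraries, 43 toward replicate 1 and 29 toward replicate 2. Over all 737 genes with a count, 194 (26.3%) passed, 125 toward replicate 1 and 69 toward replicate 2. The number of intronic genes with a count was not taken, so the 72 give no share to set beside this. The median log2 ratio of the detected intronic genes was -0.070, beside -0.088 over all detected genes.

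**Figure D4:**
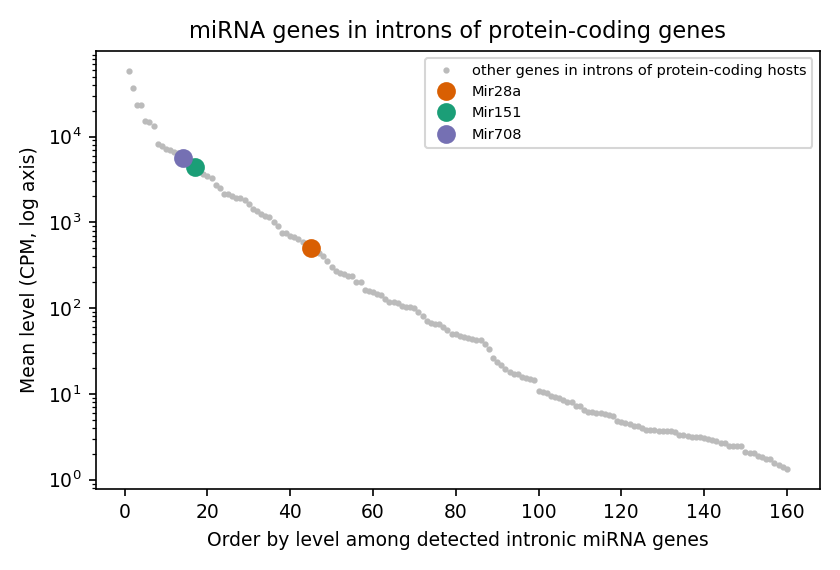
Mean level in CPM (log axis) of the 160 detected miRNA genes in introns of protein-coding hosts, ordered from highest to lowest, with the 3 family genes in colour. Mir708, Mir151 and Mir28a take places 14, 17 and 45.

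Other small families with protein-coding hosts spanned wide ranges of counts too. In the miR-26 genes, whose hosts encode Ctdsp phosphatases, Mir26b stood at 13126 ± 908 CPM, while Mir26a-1 and Mir26a-2 stood at 8.44 ± 1.25 and 37.1 ± 3.56 CPM (SD, n = 2). Among the genes in Pank hosts, which encode pantothenate kinases, Mir107 stood at 2021 ± 298 CPM, Mir103-2 at 54.8 ± 6.54 and Mir103-1 at 8.86 ± 0.252 CPM. The highest and lowest members of the miR-28, miR-151 and miR-708 group were 9.83-fold and 13.9-fold apart in replicates 1 and 2. By the levels above, this range, set without the annotated relative Mir28b, was narrower than that of either of the other families. Mir28b, at 0.408 CPM, was at about the limit of detection, so only a least range that includes it could be set. Its upper 95% counting limits were 1.45 and 0.909 CPM in replicates 1 and 2, where Mir708 stood at 5966 and 5349 CPM. On those limits the range with Mir28b was wider than that of either other family, so the order depends on leaving Mir28b out. These spreads are a description without a test, and counts of genes with near-identical copies leave out reads that match several loci. The values of Mir26a-1, Mir26a-2, Mir103-1 and Mir103-2, numbered as copies, are such counts of uniquely assigned reads. They need not mean low levels of the mature miRNAs, and the loss was not tested. The ranges of the families were therefore not compared on all reads.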

How the data were processed

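Small RNA reads of 2 forebrain libraries were analysed from the whole-number counts per miRNA gene that the authors deposited, 1 table per library. Per the deposited README files the tables use mm10 with GENCODE annotation M4 and derive from 1 alignment file per library. Which aligner and counter made them is not given in the sources used here. The column of own-strand counts was used. Totals for unmapped (16.8% ± 0.325 of reads, SD, n = 2), multi-mapping (42.7% ± 0.822), unannotated (2.21% ± 0.189) and ambiguous reads (0%) name no gene and were left out. Names, positions and hosts came from GENCODE M21 on the same assembly, matched for 1894 of 1973 gene IDs, and mature sequences from RefSeq (GRCm38.p6). The tables held 18598385 and 20638071 reads.

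Counts were scaled to CPM, and log2 values used a pseudocount of 1 CPM. Each gene was compared between the libraries by Fisher's exact test, two-sided (scipy 1.17.1), over the 737 genes with a count, Benjamini-Hochberg adjusted, at 0.05. The procedure was tested on simulated counts that held counting error only, so the simulation does not cover other differences between libraries. With 1 group of 2 libraries no test with replicates could be made. Scaling alternatives used edgeR 4.0.16 (TMM) and DESeq2 1.42.0 (median of ratios). Count differences between the libraries exceeded sampling noise (chi-square 91056 on 491 degrees of freedom). The members, marker lists and comparison families were chosen with earlier results of these data known. Named genes are the 3 members, annotated genes with related names, miRNA genes within 10 kb, the 2 nearest genes by level, hosts, entries that share a seed, and the miR-26, miR-103 and miR-107 genes. Gm23134 was added for its sequence. Arms were not separated by the counts.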

Additional observations from a re-analysis of the deposited data

Results flagged for a closer look

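Counts on the strand opposite to the gene, which no result above uses, were found at Mir708 above the limit of 3 counts that a count of 0 allows. They numbered 19 in replicate 1 and 15 in replicate 2, or 0.0450% (95% Clopper-Pearson interval 0.0271 to 0.0702) and 0.0353% (0.0197 to 0.0582) of the counts at this gene on either strand. Mir28a had 1 and 0 such counts and Mir151 had 0 and 0, with upper 95% Clopper-Pearson limits of 0.0117% and 0.0109% (0.00953% and 0.00884% by the limit of 3 counts). Of 172 genes with 1000 or more counts in both libraries, 15 had opposite-strand counts in both, and 9 had a higher share than Mir708 in both. The annotation places no other miRNA gene within 10 kb of Mir708 on either strand.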

How the results depend on the processing

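Of 108 recomputed values, 85 kept their direction and side of the threshold, moved by less than the spread between the libraries, or, for counts of genes, stayed within 1.5 times. Such counts can still turn in balance: called genes went from 69 toward replicate 2 and 125 toward replicate 1 to 99 and 88 with median-of-ratios factors. Part of the 85 could not come out otherwise. With 2 libraries, leaving out 1 moves a mean level, share or log2 ratio between members by less than the SD. Nor could the detection minima tried change the rank of genes with 3064 or more counts. The pseudocount does not enter Fisher's exact test. With totals that leave out the most abundant gene the levels were 707 CPM for Mir28a, 6235 for Mir151 and 8088 for Mir708, and the share of the 3 genes was 1.503%. Scaled to all reads, mapped or not, they were 189.8, 1668 and 2165, with a share of 0.402%. Per 100 nt of hairpin, Mir151 stood at 6408 and Mir708 at 5190, and the log2 ratio of Mir708 to Mir151 turned from 0.37 to -0.31. The log2 ratio between the libraries of Mir151 reversed to 0.021 (TMM), 0.051 (median of ratios) and 0.011 (without the most abundant gene), since these scalings move all ratios up. A call that needs at least a 1.5-fold difference was lost by Mir151 (-0.059) and Mir708 (-0.16), and 1 that needs at least 2-fold also by Mir28a (-0.65). The 1.5-fold call of Mir28a, examined under other scalings after seeing the data, was lost with TMM (1.49-fold), median of ratios (1.46-fold) and without the most abundant gene (1.4997-fold), and held in the other 5 settings tried. These folds were taken on CPM + 1, and the 1.4997-fold value lies at the threshold. Leaving out replicate 1 or 2 gave levels of 386 to 607 CPM for Mir28a, where a single library moves the value most, and ranks of 99 to 117. No paired analysis was possible because the libraries form 1 group. Depth did not limit the 3 genes, the rarest of which had 3064 counts, but it did limit Mir28b.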
